A study of Drosophila melanogaster with 3 samples.

Results

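Tet is the fly gene for the ten-eleven translocation dioxygenase, and its locus is described here as a target region of the homeodomain protein Achintya (achi). The regions were selected on measured positions: they are the summits of the authors' optimal peak list that lay in the annotated body of Tet (FBgn0263392) or within 5 kb of either side of it. They numbered 22 of the 8998 optimal summits, 21 in the body and 1 in the flank, and are called T1 to T22 in the order in which Tet is transcribed. Since Tet was chosen for having many summits, their number, density and strength are a description and carry no test.

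The assay, ChIP-seq (precipitation of sheared chromatin and sequencing of its DNA), was done on whole Drosophila melanogaster prepupae of strain achi-GFP, males and females pooled. The flies were a transgenic line with GFP fused to the C-terminus of achi, and the precipitation used an antibody against GFP, although another label names achi as the antibody's target. All 3 biological replicates belong to this 1 group, with no other genotype, treatment or time and with the age given as unknown. A whole animal mixes tissues and a transgene supplies the tagged protein, so no tissue can be assigned to a peak.

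Tet proteins belong to the family of Fe(II)- and 2-oxoglutarate-dependent dioxygenases. In mammals they oxidise 5-methylcytosine in DNA, whereas the fly genome holds very little of that base, and fly Tet is known for oxidising methylcytosine in RNA and has also been connected with methyladenine in DNA. The long forms of the fly protein carry a CXXC zinc finger that binds DNA and the short forms, made from an internal start, lack it; both carry the catalytic domain. Achi is a homeodomain protein of the TGIF class; the mammalian TGIF proteins are known mainly as repressors, and fly achi and its neighbour vis are known for their role in spermatogenesis.

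The gene lies at chr3L:2786207-2879158 on the minus strand of dm6, the Release 6 assembly, and spans 92.952 kb. Ensembl release 115 lists 6 transcripts. The 4 long ones begin at the upstream start, position 2879158, and the 2 short ones begin at the internal start, position 2821103, 58.055 kb further along the gene. Distances below are counted from this internal start.

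The windows of 201 bases around the summits of T15, T11 and T16, the 3 strongest at Tet, show the sequence under the main peaks, and that of T4 shows a summit with a word that was frequent among achi peaks in earlier results of these data; T4 was chosen after its words were seen. All are the minus strand, 5′ to 3′, with the summit at the middle base, read from the Release 6 genome. Capitals mark matches on either strand to TGACAG, the word bound by TGIF proteins, to AGTGTA, to ACACTG, to ACAGTG and to TAATTA, a common homeodomain word. Windows without capitals held none of these words.
T15, chr3L:2824116-2824316: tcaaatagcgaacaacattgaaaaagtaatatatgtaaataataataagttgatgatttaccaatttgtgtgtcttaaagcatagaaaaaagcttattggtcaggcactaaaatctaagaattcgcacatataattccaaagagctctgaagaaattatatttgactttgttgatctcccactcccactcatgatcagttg
T11, chr3L:2835067-2835267: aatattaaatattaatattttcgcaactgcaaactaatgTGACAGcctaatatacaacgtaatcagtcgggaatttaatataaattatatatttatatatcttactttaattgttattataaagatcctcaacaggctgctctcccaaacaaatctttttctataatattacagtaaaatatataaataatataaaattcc
T16, chr3L:2823072-2823272: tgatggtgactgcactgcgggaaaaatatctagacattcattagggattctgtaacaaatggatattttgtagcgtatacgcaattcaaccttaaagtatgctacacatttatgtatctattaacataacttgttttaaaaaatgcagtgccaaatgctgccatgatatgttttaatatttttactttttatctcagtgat
T4, chr3L:2866952-2867152: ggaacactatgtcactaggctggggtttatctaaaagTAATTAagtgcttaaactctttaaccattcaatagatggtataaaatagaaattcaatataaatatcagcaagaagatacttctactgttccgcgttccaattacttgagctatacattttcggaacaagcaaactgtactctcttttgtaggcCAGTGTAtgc

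The starts of the long and short forms differed in sequence as well as in peaks, and the 250 bases before each are given on the same strand. In the internal one, capitals mark GAGAG or its reverse complement CTCTC, the core of the word bound by the GAGA factor; it holds the summit of T17, 210 bp before the start. In the upstream one, capitals mark TATAAA; it holds no optimal summit.
Internal start, chr3L:2821104-2821353: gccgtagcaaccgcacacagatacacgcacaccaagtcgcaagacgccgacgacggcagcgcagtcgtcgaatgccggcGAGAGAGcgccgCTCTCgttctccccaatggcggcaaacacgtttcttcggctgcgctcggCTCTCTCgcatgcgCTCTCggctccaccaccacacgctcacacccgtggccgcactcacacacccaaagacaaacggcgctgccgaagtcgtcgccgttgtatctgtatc
Upstream start, chr3L:2879159-2879408: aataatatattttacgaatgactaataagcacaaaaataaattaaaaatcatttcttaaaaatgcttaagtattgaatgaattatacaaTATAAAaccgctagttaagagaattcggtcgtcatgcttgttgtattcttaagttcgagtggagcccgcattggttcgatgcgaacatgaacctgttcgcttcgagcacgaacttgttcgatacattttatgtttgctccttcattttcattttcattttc

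The internal start window had 6 overlapping or separate matches to GAGAG on either strand and a GC content of 63.2%. Of the windows before all 19253 annotated protein-coding starts, 29.1% held at least 1 match, 2.48% held 6 or more, and 0.208% had a GC content at least as high, against a median of 38.4%. The upstream start window had a GC content of 32%, and 22.3% of all windows had that or less. Its single TATAAA lay 161 bp before the start, and 39.6% of all windows held that word somewhere. These words were chosen after the windows had been read, and a match says nothing about which factor was there.

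Strong achi peaks gathered before the internal start, not at the upstream one. T15, the strongest, lay 3.113 kb before the internal start and ranked 123 of 8998 by the authors' signal, their own score of enrichment, with a value of 1987. T16 followed at 2.069 kb with a signal of 888 and rank 623, and T17 sat in the promoter at 0.21 kb with a signal of 381 and rank 2414. T11, at 14.064 kb, was second in strength at Tet with a signal of 1173 and rank 363. T15, T11 and T16 together made up 45.7% of the signal summed over the 22 summits, and all 3 lay in intron 5.

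Further from the internal start, the peaks of the long-form part of the gene were led by T8 and T3. T8, 26.375 kb before the internal start and in intron 5, had a signal of 704 and rank 938. T3, at 48.106 kb and in intron 3, had a signal of 515 and rank 1580. T2, the only summit of intron 1, was among the weakest of all, with a signal of 127.9 and rank 8469.

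The summit nearest to the upstream start was T1, 800 bp outside the gene, with a signal of 127.5 and rank 8503. No optimal summit lay within 500 bp of that start. The pooled list, made from all replicates without the authors' reproducibility threshold, did list a region there with its summit at position 2879321, but only at rank 22788 of 30000, and of the replicate lists only that of replicate 3 had it, at rank 9921.

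After the internal start the peaks were fewer and of middling to low strength. T18 to T22 lay between 12.47 and 20.612 kb downstream, all in intron 5, and their signals ran from 140 for T20 to 330 for T21. The closest pair of all, T19 and T20, were 0.659 kb apart. The last 14.284 kb of the gene, with all coding exons of the short forms, held no optimal summit.

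**Figure D1:**
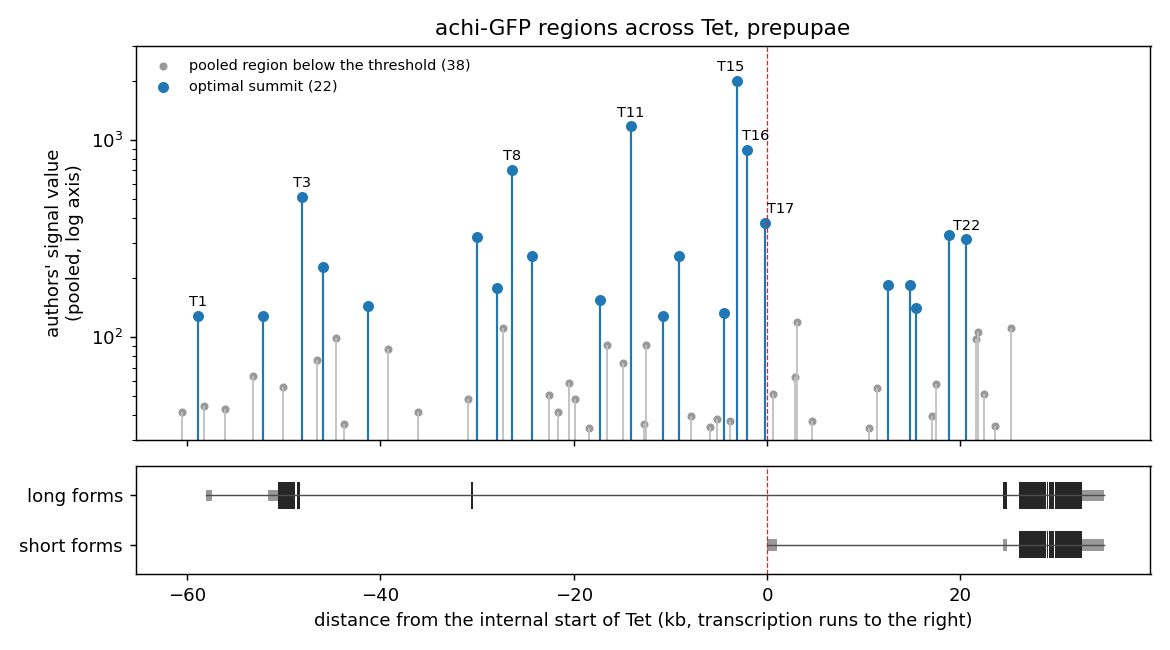
The authors' pooled signal value of each region (log axis) is drawn against the distance from the internal start of Tet in kb, negative values being upstream, over the exons of the long and short forms with coding parts dark and tall. The 22 optimal summits (blue) are highest at T15, with a signal of 1987, just before the internal start. The 38 pooled regions that overlap no optimal peak (grey, labelled as below the threshold) do not rise above 119. Weaker pooled regions that overlap an optimal peak are not drawn.

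Placed by annotation, 20 of the 22 summits were intronic, 1 was in a promoter, 1 in the 5′ flank and 0 in an exon. Over the whole optimal list, 32.5% of summits lay within 500 bp of a protein-coding start. A narrower share, of the summits inside a gene body that lay within 500 bp of a start of that same gene, was 4.76%, 1 of 21, at Tet. It was 8.20%, 136 of 1659, over the other protein-coding genes of 0.5 to 2 times the length of Tet. These are sums over genes, so a summit in overlapping genes counts once for each of them. This measure counts summits before an internal start, such as T17, but leaves out those before the outermost start of the gene. It also leaves out starts of other genes, so it cannot be set against the share of the whole list.

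Intron 5, which spans the internal start, held 17 of the 22 summits. It is 54.877 kb long, 59.0% of the gene body, and its density was 0.310 summits per kb. Intron 3 had 2 summits in 5.388 kb, or 0.371 per kb, and intron 4 had 1 in 12.346 kb, or 0.0810 per kb. Intron 5 was itself uneven: its 30.455 kb upstream of the internal start held 12 summits, 0.394 per kb, and its 23.377 kb downstream of the internal first exon held 5, 0.214 per kb. In the 15 kb just upstream of the internal start, a window chosen after the positions were seen, there were 7 summits, 0.467 per kb.

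Neighbouring summits were a median of 2.276 kb apart. The longest interval inside the gene, 12.68 kb, separated T17 from T18 and begins at the internal promoter. Ensembl lists 0 transposable elements in the gene body, where 21 of the 22 summits lay. GC content in the 201 bases around the summits had a median of 34.8% against 34.3% over all optimal peaks, and T17 was the highest at 53.7%. Lower-case bases of the reference, which mark repeats and simple sequence, were present in 22 of 22 windows, and in 88.8% of those of all optimal peaks.

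The 22 summits covered nearly the whole range of strength. Ranked in the optimal list from 0 to 100, with 100 the strongest, they ran from 5.37 for T12 to 98.6 for T15 with a median of 51.9. There were 4 among the first 1000 of the list, 11 with a percent rank of at least 50 and 7 below 25. The authors' −log10 q-value was at its maximum for 16 of the 22, as for 7035 of all 8998 peaks, and so could not order them.

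The strong summits kept one order in the replicates, although percent ranks near 100 leave little room to differ and the ranks themselves varied. T15 ranked 163, 109 and 104 in replicates 1, 2 and 3, each a list of 30000 regions, which is a percent rank of 99.6 ± 0.109 (SD, n = 3). T11 ranked 371, 426 and 327, a percent rank of 98.8 ± 0.165 (SD, n = 3). T16 ranked 592, 848 and 510, a percent rank of 97.8 ± 0.588 (SD, n = 3). T15 was thus ahead of T11, and T11 ahead of T16, in each replicate.

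T8 and T3 kept this order too. T8 ranked 897, 1194 and 844, a percent rank of 96.7 ± 0.629 (SD, n = 3). T3 ranked 1678, 1821 and 1563, a percent rank of 94.4 ± 0.431 (SD, n = 3). T17, in the internal promoter, ranked 2934, 2976 and 2464, a percent rank of 90.7 ± 0.948 (SD, n = 3), and so came after T3 in every replicate.

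The ranks rest on the signal values of each replicate list. In replicate 1 the signal was 608 at T15, 395 at T11, 311 at T16 and 115 at T17. In replicate 2 it was 657, 336, 237 and 105 at the same summits, and in replicate 3 it was 730, 436, 342 and 135. The sources used here do not say whether signal was adjusted for depth, so it was compared only within a list.

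Several of the weak summits lay on both sides of the top-list edge. T12 ranked 7391, 8328 and 12514, a percent rank of 68.6 ± 9.09 (SD, n = 3). T2 ranked 12103, 7021 and 10630, a percent rank of 66.9 ± 8.72 (SD, n = 3). T5 ranked 6949, 11619 and 7453, a percent rank of 71.1 ± 8.54 (SD, n = 3). These 3 summits, and T14 at 69.8 ± 7.77 (SD, n = 3), cannot be put in order, because their replicate ranges overlap. Not every weak summit varied so widely. T1 ranked 8607, 8706 and 9464, a percent rank of 70.3 ± 1.56 (SD, n = 3).

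Among summits of middle strength, T21 ranked 5136, 2894 and 2188, a percent rank of 88.6 ± 5.13 (SD, n = 3). T4 ranked 3873, 4699 and 5677, a percent rank of 84.2 ± 3.01 (SD, n = 3). T22 ranked 2775, 4080 and 3194, a percent rank of 88.8 ± 2.22 (SD, n = 3), inside the range of T21. No order between T21 and T22 can therefore be read from the replicates.

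The other summits upstream of the internal start filled the middle of the range. T6, at 30.022 kb and near the start of intron 5, had a signal of 323 and ranked 2749, 3787 and 3106, a percent rank of 89.3 ± 1.76 (SD, n = 3). T9, at 24.27 kb, and T13, at 9.095 kb, both had a signal of 257 and percent ranks of 84.9 ± 1.22 and 85.5 ± 1.61 (SD, n = 3), whose replicate values overlapped. T7, at 27.987 kb between T6 and T8, was weaker than either, with a signal of 178 and ranks of 6164, 4299 and 7727. T10, at 17.32 kb, ranked 8976, 8648 and 6246, and so only just entered the top list of replicate 1.

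The group downstream of the internal start was close in strength apart from T21 and T22. T18 had a percent rank of 79.3 ± 2.82, T19 of 80.3 ± 3.83 and T20 of 78.9 ± 1.78 (SD, n = 3). The replicate ranges of these 3 overlapped, and each was present in all 3 replicates at a rank of 7164 or better.

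To compare lists of equal length, the 8998 strongest regions of each replicate were taken as its top list. The top lists of all 3 replicates held 17 of the 22 summits, those of 2 replicates held T1, T5 and T12, and that of 1 replicate held T2 and T14. Over all optimal peaks, 72.1% were in the top lists of all 3, so the count at Tet is near this background. The full replicate lists held all 22. Since the authors made the optimal list from these same lists, presence in them is no independent support.

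The replicate summits lay near those of the optimal list, which the measure partly fixes in advance. Only replicate regions holding the optimal summit were used, so a large offset could not arise. The optimal list was also made from these same lists. For each summit the largest offset between the optimal summit and that of a replicate was taken; its median was 41.5 bp, it was at most 50 bp for 15 of the 22, and its largest value was 136 bp, at T18. The median percent rank of the 22 in the replicates' own lists was 83.8, 84.4 and 83.1.

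**Figure D2:**
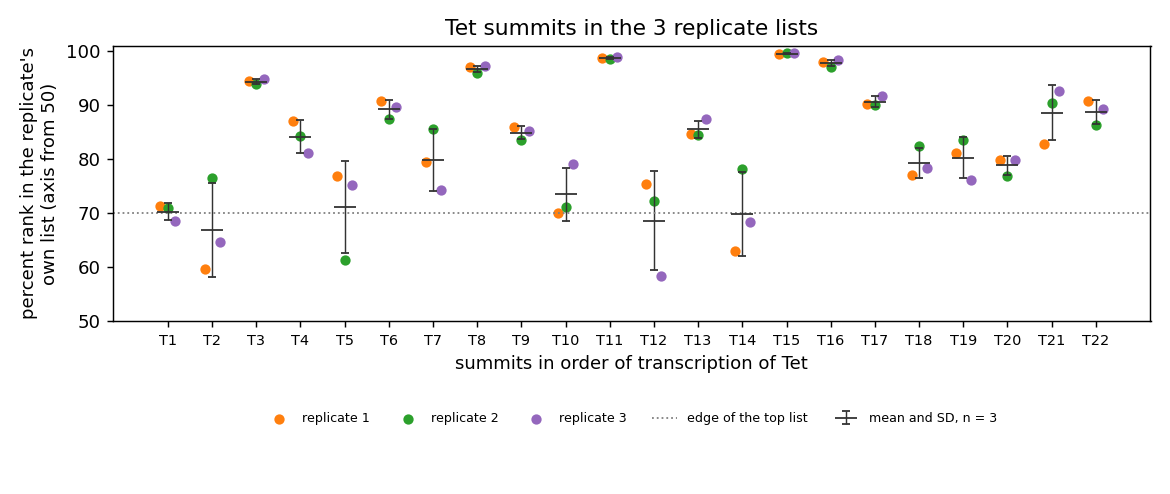
Percent rank of each of the 22 Tet summits within the list of 30000 regions of each replicate (points), with the mean and SD over the 3 replicates (bars); the vertical axis starts at 50 and the dotted line is the edge of the top list. T15, T11 and T16 stay above 97 in every replicate, while T1, T2, T5, T12 and T14 cross the dotted line.

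The threshold fell among regions of like strength. Just inside it at Tet were T12, with a signal of 127.2 and rank 8515, and T1, with rank 8503. Just outside was a region with its summit at position 2818024, 3.079 kb downstream of the internal start, with a pooled signal of 119 and pooled rank 9101, which ranked 14919, 14433 and 5804 in the replicates. Of 65 pooled regions at the locus, 27 overlapped an optimal peak and 38 did not. Of those 38, 34 were intronic, and 0 were in the top lists of all 3 replicates, with 7 in that of at least 1.

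Weaker regions did reach into the 3′ part of the gene. Of the 38, 5 lay beyond T22 towards the 3′ end, and 1 of them lay in the 10.475 kb after intron 5, which hold the last exons. The replicate lists held 57, 58 and 55 regions at the locus (56.7 ± 1.53, SD, n = 3).

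Set beside genes of similar length, Tet had a dense but not an extreme load. Its 21 summits in the body gave 0.226 per kb, against 0.0672 per kb over the main chromosome arms. The other protein-coding genes of 0.5 to 2 times its length numbered 344 and were 46.483 to 179.439 kb long. At least 1 summit in the body was present in 72.4% of them, with a median of 3 summits per gene and quartiles of 0 and 7. Their median density was 0.0421 per kb and their upper quartile 0.102 per kb. Tet was at the 96.5th percentile, with 12 of the 344 denser.

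The replicates gave the same picture. The top lists put 23, 22 and 20 summits in the body of Tet, or 0.247, 0.237 and 0.215 per kb (0.233 ± 0.0164, SD, n = 3). The percentiles among the 344 genes were 98.5, 97.4 and 94.8 (96.9 ± 1.94, SD, n = 3), with 5, 9 and 18 genes denser. Replicate 1 thus put Tet highest and replicate 3 lowest among these genes.

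**Figure D3:**
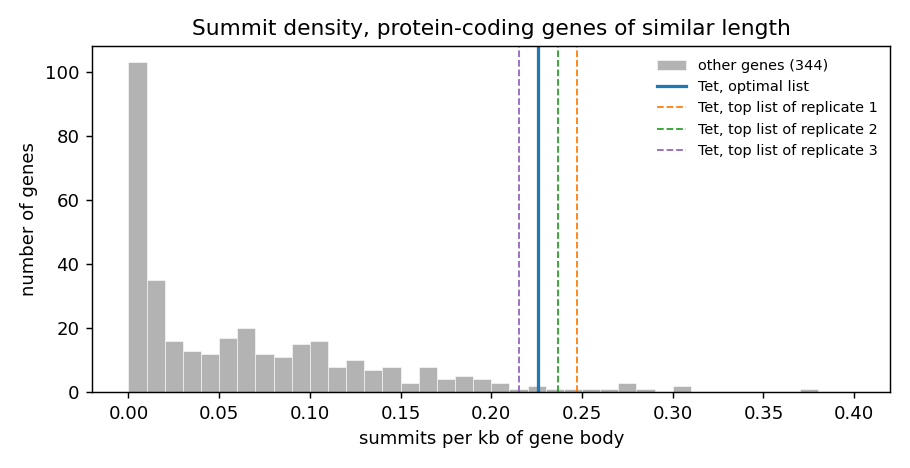
Histogram of optimal summits per kb of gene body over the 344 other protein-coding genes of similar length (grey, number of genes), with Tet in the optimal list (solid line) and in the top list of each replicate (dashed lines). Most genes lie under 0.1 per kb, and the 4 Tet lines, from 0.215 to 0.247, lie in the sparse upper tail.

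By number of summits, 1.16% of these genes, 4 of 344, had as many as Tet or more. They were mtgo with 21, CG43658 with 23, Snoo with 26 and sbb with 30. Snoo encodes a Smad corepressor and at 93.010 kb is nearly as long as Tet. By the rank of the best peak, only ush, with rank 29, and InR, the insulin receptor gene, with rank 89, were ahead of the rank 123 of T15, against a median best rank of 1773 over the genes with a summit. Of these genes, mtgo, CG43658, Snoo and InR were named after their values were seen.

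The 5 densest genes of this length class were sbb, which encodes a corepressor, Raf, the kinase of the Ras pathway, shn, a zinc-finger protein of Dpp signalling, Tlk, the tousled-like kinase, and ush, a cofactor of GATA factors. Their densities in the optimal list ran from 0.280 per kb for ush to 0.379 per kb for sbb. In the replicates sbb had 0.354 ± 0.0253 per kb and shn 0.343 ± 0.0297 per kb (SD, n = 3). Together with Raf and ush they were above the highest value of Tet in every replicate. Tlk, at 0.263 ± 0.0219 per kb (SD, n = 3), overlapped the range of Tet and is not separated from it.

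The 5 genes most like Tet were those with the smallest Euclidean distance over the 3 replicate densities. They were Eip74EF, an ETS factor induced by ecdysone, Bx, an LMO cofactor, pnt, an ETS effector of Ras signalling, rdx, an adaptor of a Cullin ubiquitin ligase, and psq, a BTB-domain DNA-binding protein. Their distances ran from 0.0336 per kb for Eip74EF to 0.0471 per kb for psq. Eip74EF had 0.220 ± 0.00952 per kb and psq 0.236 ± 0.0168 per kb (SD, n = 3), next to the 0.233 ± 0.0164 of Tet. Their best peaks ranked from 433 for rdx to 2000 for Bx, all behind T15.

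**Figure D4:**
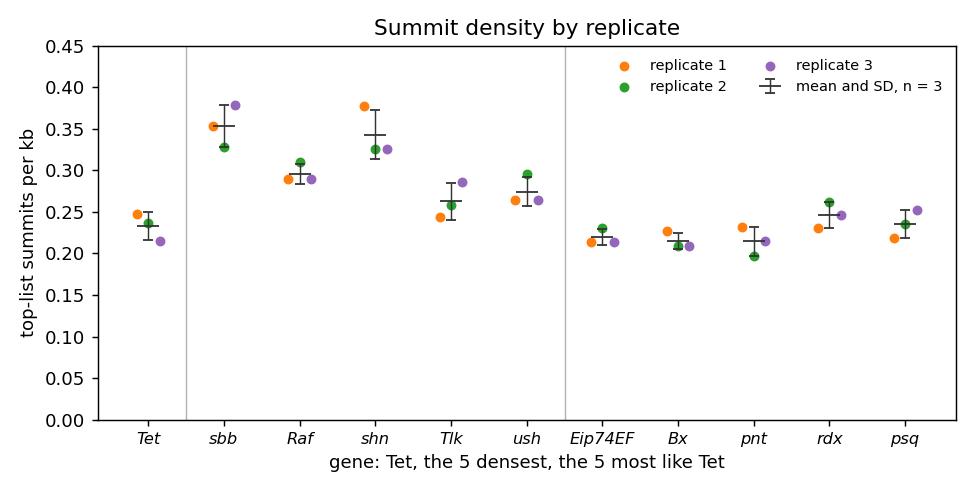
Top-list summits per kb of gene body in each replicate (points) with the mean and SD over 3 replicates (bars), for Tet, the 5 densest protein-coding genes of similar length and the 5 whose replicate densities were nearest to Tet. The points of sbb, Raf, shn and ush lie above all 3 points of Tet, and those of the 5 nearest genes overlap its range.

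The genes next to Tet are short, and no optimal summit lay in them. Within 5 kb lay lncRNA:CR44531 and spz5, of the spätzle family of Toll ligands, on the 5′ side, and Pgant6, a glycosyltransferase gene, and mRpS35, a mitochondrial ribosomal protein gene, on the 3′ side. None had a summit within 500 bp of a start. Of all 13945 protein-coding genes 23.2% had one, so most genes lack it, and that share leaves out genes such as the lncRNA. Their bodies held 0 summits but were only 587 to 8526 bp long, against 92.952 kb for Tet. No contrast with the density of Tet can be read from genes this short. T1, the nearest, lay 2856 bp from the start of lncRNA:CR44531.

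The TGIF word and the words frequent among achi peaks were each in a single Tet window. TGACAG was present in 1 of 22 (4.55%, 95% Wilson interval 0.807 to 21.8), T11, where it lies at −61 to −56 from the summit, and in 7.84% of all optimal summits. AGTGTA was in 1 of 22, T4, against 16.9% of all, and ACACTG likewise in T4 alone, against 16.9%. In T4 both are read from the same CAGTGTA at positions 91 to 97, so they are not separate matches. ACAGTG was in T3 alone, against 16.5% of all. The intervals for 22 windows include each of these background shares, and no difference from all peaks is claimed. The windows belong to 1 chosen gene and are counted among all peaks too, so the intervals are a description and no test.

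T15, T16 and T17, the cluster at the internal start, held none of these 4 words. TAATTA was in 4 of 22 windows, T4 among them, against 17.2% of all. GAGAG was in 3 of 22 against 22.5% of all, and TATAAA in 10 of 22 against 37.2% of all. ATATTA was in 9 of 22 against 34.7%, CACACA in 5 of 22 against 14.7%, and GTGCAC in 3 of 22 against 8.31% of all. AGGTCA was in 0 of 22 against 3.69%, and TATCGATA in 0 of 22 against 2.3% of all. The 95% Wilson intervals of the Tet shares included the share of all peaks for every one of the 12 words searched. All words other than TGACAG and AGTGTA were added after the data were seen.

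Genes related to Tet were counted from 3 written lists of 35 different genes. The lists cover RNA methylation, the COMPASS complexes described below, and other dioxygenases, listed for their enzyme family alone. Of the 35, 12 (34.3%) had an optimal summit within 500 bp of a start, beside the 23.2% of all protein-coding genes. The replicate top lists gave 16, 12 and 11 (13 ± 2.65, SD, n = 3), the list of replicate 1 giving the most. Tet itself is bound in this sense, through T17.

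Of 13 RNA methylation genes, 4 were bound (30.8%, beside 23.2% of all protein-coding genes), and the replicates gave 5, 4 and 3. They were fl(2)d and Hakai, subunits of the adenosine methyltransferase complex of messenger RNA, and Nsun2 and Nsun5, which methylate cytosine in RNA and so make the base that Tet oxidises. The summit of Nsun5 lay 75 bp from a start with rank 2076, and that of Nsun2 lay 107 bp away with rank 6141 and was missed in the top list of replicate 3. Mettl3 and Mettl14, the core of the adenosine methyltransferase, were not bound in the optimal list, and their nearest summits lay 851 and 2803 bp away. Mettl3 was bound in the top list of replicate 1 alone, and Mettl14 in that of no replicate. Mt2, a further RNA methyltransferase of the list, was not bound in any list, its nearest optimal summit being 19552 bp from a start.

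COMPASS are the histone H3 methyltransferase complexes with which fly Tet has been reported to work. Of 12 of their genes, 3 were bound (25%), near the 23.2% of all protein-coding genes. The replicates gave 6, 4 and 3. The bound genes were ash2 and Rbbp5, shared core subunits, and Utx, a histone demethylase of one of the complexes. The gene of Wds, the partner reported for Tet, was not bound, its nearest summit being 2835 bp from a start. In trx, which encodes a methyltransferase of the group, 5 summits lay in the body and the nearest was 1947 bp from a start. It was bound in the top list of replicate 1 alone.

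Of 12 other dioxygenase genes that use Fe(II) and 2-oxoglutarate, 6 were bound (50%, beside 23.2% of all protein-coding genes). The replicates gave 6, 5 and 6. The bound genes were Kdm2, Kdm5 and Utx, histone demethylases, JMJD6 and JMJD7, hydroxylases of the JmjC kind, and Hph, the prolyl hydroxylase that senses oxygen. JMJD6 had the strongest of these peaks, with rank 352, at 410 bp from a start. Kdm2 had 6 summits in its body, the most in this list, and was missed in the top list of replicate 2.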

How the data were processed

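Peak lists of an anti-GFP ChIP-seq of achi-GFP prepupae, 3 biological replicates in 1 group, were analysed; whether the replicates share a batch is not given, so the SD over them may be technical. The file descriptions deposited by the authors say that the pooled list and those of the replicates (30000 regions each) came from alignments with 1 shared control, and that the optimal list was derived from them by irreproducible discovery rate. The authors' signal value (enrichment) and −log10 q-value per region are used as deposited. The sources used here name no aligner or peak caller, read depth is unknown, and no precipitation from untagged flies was analysed here. A fault of the control would reach every replicate.

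Summits, in dm6, were placed on the Ensembl release 115 annotation; sequences came from RefSeq's Release 6 genome. In the optimal list 46 intervals recur with a further summit, each kept. A replicate rank is that of its strongest region holding the optimal summit. Promoter means within 500 bp of a start, and a gene with a summit there counts as bound. Words were sought up to 100 bp either side of a summit, on either strand. In the lists, lid and PSR matched by synonym and hcf by other case. Named genes are Tet, those within 5 kb, and in its length class the 5 densest and the 5 most like Tet. The bound list members are named too. Added after their values were seen were mtgo, CG43658, Snoo and InR. Of the list members not bound, Mettl3, Mettl14, Mt2, wds and trx were added likewise. The members, lists and words were chosen with earlier results of these data known. No hypothesis was tested. Functions were tested on simulated data. Python 3.11.15, numpy 2.4.6, pandas 2.3.3, scipy 1.17.1 and matplotlib 3.10.9 were used.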

Additional observations from a re-analysis of the deposited data

How the results depend on the processing

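Of 47 recomputed values, 31 kept near the reported value and 16 moved. A value with a spread or interval had to stay inside it, and one without had to stay within 1.5 times. A moved value can thus lie within 1.5 times of the reported one, as 0.247 per kb did against 0.226. A kept value can differ more, as the 13.6% with AGTGTA did from 4.55%, inside its wide interval. Keeping the stronger 50% of peaks left 11 summits at Tet and 0.118 per kb of its body, but put Tet at a percentile of 97.1; over the alternatives to the optimal list's settings the percentile was 95.9 to 98.0, and in the replicate top lists it was 94.8 to 98.5. The top list of replicate 1 gave 0.247 per kb. Leaving out each replicate in turn, which here only keeps the optimal summits found in the top lists of both others and repeats no peak calling, gave 17 to 19 summits, 0.183 to 0.194 per kb, and a median percent rank of 55.3 to 64.9. That median was 60.9 when ranked by −log10 q and 55.2 in the body alone. Promoter summits were 0 within 200 bp of a start, where T17 falls outside, and 2 within 1000 bp, where T1 is added. Top lists cut to 4499 regions left 8 summits in all 3. Within 50 bp of the summit the share with TGACAG was 0%, as was that with AGTGTA; within 200 bp they were 9.09% and 13.6%. The count of bound genes in the lists was 10 to 13 over the promoter windows and the left-out replicates, and 11 to 16 in the replicate top lists. Where fewer peaks are kept, counts fall by construction. The dm3 list was not run, since no dm3 annotation was used here. No paired analysis was possible because there is 1 group. The main limits are the 22 summits, whose word shares have wide intervals, the unknown read depth, and the control shared by every list.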

Other observations

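Upstream of Tet the optimal list was empty for a long way. The next summit beyond T1 lay 156.299 kb further upstream, at position 3036257 with rank 1847, across 12 protein-coding genes. Of 8992 intervals between neighbouring summits on the same arm, 58 were longer, and the median was 4.45 kb. The pooled list held 9 regions in this interval, 0.0576 per kb with the best at rank 11409, against 0.667 per kb in the body of Tet. Tet was chosen for its many summits, so this comparison overstates how far the interval falls below a typical stretch. The pooled density over the chromosome arms is not given here. The replicate lists held 6, 13 and 20 regions in the interval. On the other side the next summit lay 12.12 kb beyond the 3′ end of Tet, with rank 570. The interval was noticed after the positions were seen, and its cause was not tested.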
